A study of Mus musculus with 6 samples.

Results

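Slc2a2, Slc2a1, Gckr, G6pc2, Pcx, Pfkfb2 and Gpd2 are 7 genes of glucose handling in the pancreatic beta cell. They were taken by name from a RefSeq gene table of the mouse genome build GRCm38, in which they are 7 of 21887 protein-coding genes. Every deposited CUT&RUN peak in a gene's body or within 50 kb of either end was counted for it, and this stretch is called its window. Only the first 4 act on glucose entry and phosphorylation directly. Pfkfb2 sets the pace of glycolysis a few steps later, and Pcx and Gpd2 act in mitochondria.

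The study profiled endogenous MafA in MIN6 cells, a line derived from a mouse beta cell tumour that expresses a viral T antigen under the insulin promoter. CUT&RUN uses an antibody to direct a nuclease to chromatin, so that the released DNA fragments mark where the target lies. The groups were MafA antibody at a 1:100 dilution, H3K4me3 antibody (positive control) and control IgG, with 2 replicates each and 500000 cells per sample permeabilised in 0.01% digitonin. No group received a further treatment or a genetic change, the labels do not say whether replicates came from separate cultures, and the IgG libraries are not analysed here.

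Glucose enters a beta cell through facilitative transporters and is trapped there by phosphorylation, and the product can be hydrolysed back to glucose by a glucose-6-phosphatase. Carbon that passes through glycolysis enters mitochondria as pyruvate, and glycolytic electrons enter through shuttles, which together raise ATP and trigger insulin release. MafA is a basic leucine zipper transcription factor of mature beta cells that binds MAF recognition elements, whose core is the motif TGCTGAC or its shorter form TGCTGA. H3K4me3 is a histone mark of active or poised promoters.

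The promoter sequences below are shown because the MafA and H3K4me3 signals at these start sites ranged from none, at the first G6pc2 site, to both targets in both replicates, at the second. Each runs 5′ to 3′ in the direction of transcription from 250 bases before an annotated start site to 50 bases after it, as given by RefSeq on GRCm38.p6, and capitals mark TGCTGAC or its reverse complement GTCAGCA. The Slc2a2 stretch is chr3:28697653-28697952 on the plus strand. The G6pc2 stretches are chr2:69210823-69211122 and chr2:69219699-69219998 on the plus strand. The Pfkfb2 stretch is chr1:130715772-130716071 on the minus strand, and the Gpd2 stretch is chr2:57238132-57238431 on the plus strand.
Slc2a2: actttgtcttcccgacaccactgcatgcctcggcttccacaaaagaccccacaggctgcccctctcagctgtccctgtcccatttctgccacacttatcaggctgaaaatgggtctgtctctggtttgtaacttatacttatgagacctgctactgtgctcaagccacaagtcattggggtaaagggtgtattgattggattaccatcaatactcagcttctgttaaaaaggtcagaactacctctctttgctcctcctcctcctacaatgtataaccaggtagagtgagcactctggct
G6pc2 first start site: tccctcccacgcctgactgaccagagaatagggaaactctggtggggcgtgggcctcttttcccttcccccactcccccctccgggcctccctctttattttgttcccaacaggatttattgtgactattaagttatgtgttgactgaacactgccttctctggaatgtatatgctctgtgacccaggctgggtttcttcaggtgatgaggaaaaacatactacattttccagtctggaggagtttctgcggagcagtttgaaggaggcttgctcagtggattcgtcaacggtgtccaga
G6pc2 second start site: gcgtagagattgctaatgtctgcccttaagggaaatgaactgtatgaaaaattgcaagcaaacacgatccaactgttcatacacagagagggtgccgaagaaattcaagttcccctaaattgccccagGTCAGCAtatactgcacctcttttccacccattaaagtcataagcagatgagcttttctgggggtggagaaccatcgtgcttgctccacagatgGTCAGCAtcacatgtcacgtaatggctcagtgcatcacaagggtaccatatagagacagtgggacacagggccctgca
Pfkfb2 middle start site: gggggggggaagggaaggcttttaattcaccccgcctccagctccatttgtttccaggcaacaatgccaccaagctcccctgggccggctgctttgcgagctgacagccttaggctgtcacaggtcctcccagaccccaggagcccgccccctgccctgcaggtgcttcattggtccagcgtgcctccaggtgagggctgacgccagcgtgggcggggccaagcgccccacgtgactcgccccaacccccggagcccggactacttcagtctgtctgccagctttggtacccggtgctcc
Gpd2 second start site: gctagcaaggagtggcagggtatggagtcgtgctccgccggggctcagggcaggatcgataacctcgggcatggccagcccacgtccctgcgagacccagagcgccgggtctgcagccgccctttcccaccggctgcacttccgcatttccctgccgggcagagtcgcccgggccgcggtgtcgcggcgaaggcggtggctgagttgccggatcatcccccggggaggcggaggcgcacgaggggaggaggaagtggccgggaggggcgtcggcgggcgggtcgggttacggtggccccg
The second G6pc2 promoter held 2 matches to TGCTGAC, both on the strand opposite to transcription. Counted from the start site, they lay at bases -122 to -116 and -28 to -22, at chr2:69219827-69219833 and chr2:69219921-69219927. Both fell inside the MafA peak of each replicate, the nearer 214 and 210 bp from the summits of replicates 1 and 2 and the farther 308 and 304 bp from them. The other 4 printed promoters held no match to either motif. Of the 12 promoters listed for the 7 genes, 3 held TGCTGA, and the same 3 held TGCTGAC. The remaining matches were 1 each in 2 other Pfkfb2 promoters, 977 and 978 bp from the MafA summits of replicates 1 and 2 in the first, 500 and 499 bp in the other, and outside the MafA peaks. Searched on both strands, TGCTGA occurred in 19.5% of the 32851 promoters of the same length in the table and in 19.9% of the 4420 that overlapped a MafA region. TGCTGAC, every match of which also holds TGCTGA, occurred in 4.67% and 6.43% of them. It had 2 or more matches in 0.189% of all promoters and in 0.158% of those that overlapped a MafA region. These are counts of letters in fixed windows and do not mark binding sites.

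The 4 peak lists analysed held 16020 peaks in H3K4me3 replicate 1, 16904 in H3K4me3 replicate 2, 33013 in MafA replicate 1 and 42747 in MafA replicate 2. A region is the union of overlapping peaks of both replicates of a target, and 25894 MafA regions were found in all. Fold enrichment is the authors' own value per peak. It is the fragment pileup at the peak summit, scaled per library, over the background modelled there, with 1 added to both. The fragments at each summit were recovered from it, with medians of 759, 263, 25 and 46 fragments per peak in the same order of libraries, so MafA values rest on far fewer fragments than H3K4me3 values. H3K4me3 stood at an end of 9 of 10 beta cell marker genes, among them Ins2, Pdx1 and Mafa but not Ins1, and at 1 of 4 markers of other islet cells, Gcg. It stood at an end of 0 of 4 acinar and duct markers and of 0 of 3 liver, blood and fibroblast markers. Over all protein-coding genes the share was 55.8%.

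All 7 genes had a MafA region in their window, as had 66.1% of all protein-coding genes. A region with at least 10-fold enrichment in both replicates lay in 5 of the 7 windows, those of Slc2a2, G6pc2, Pcx, Pfkfb2 and Gpd2, against 15.9% of all protein-coding genes; this threshold was chosen after the values were seen. Slc2a1 and Gckr had only weak regions. The 7 windows held 43 MafA regions, of which Slc2a2 had 14, G6pc2 11, Pcx 8, Gpd2 5, Pfkfb2 2, Slc2a1 2 and Gckr 1. Without the requirement of both replicates, MafA replicate 1 alone had 58 peaks there and replicate 2 alone 67. The median was 5 regions per window for these genes, 1 for all protein-coding genes and 2 for the protein-coding genes with H3K4me3 at an end. Windows differ in length, and per 100 kb the medians were 2.15, 0.925 and 1.57 regions in the same order. Of the 43 regions, 16 had their summits inside one of the 7 genes, 16 upstream and 11 downstream, and 23 lay nearer to an end of another protein-coding gene. Ends here are those of the annotated gene, not start sites. The 23 thus include a Pfkfb2 region with summits 62 and 61 bp past a Pfkfb2 start site.

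**Figure D1:**
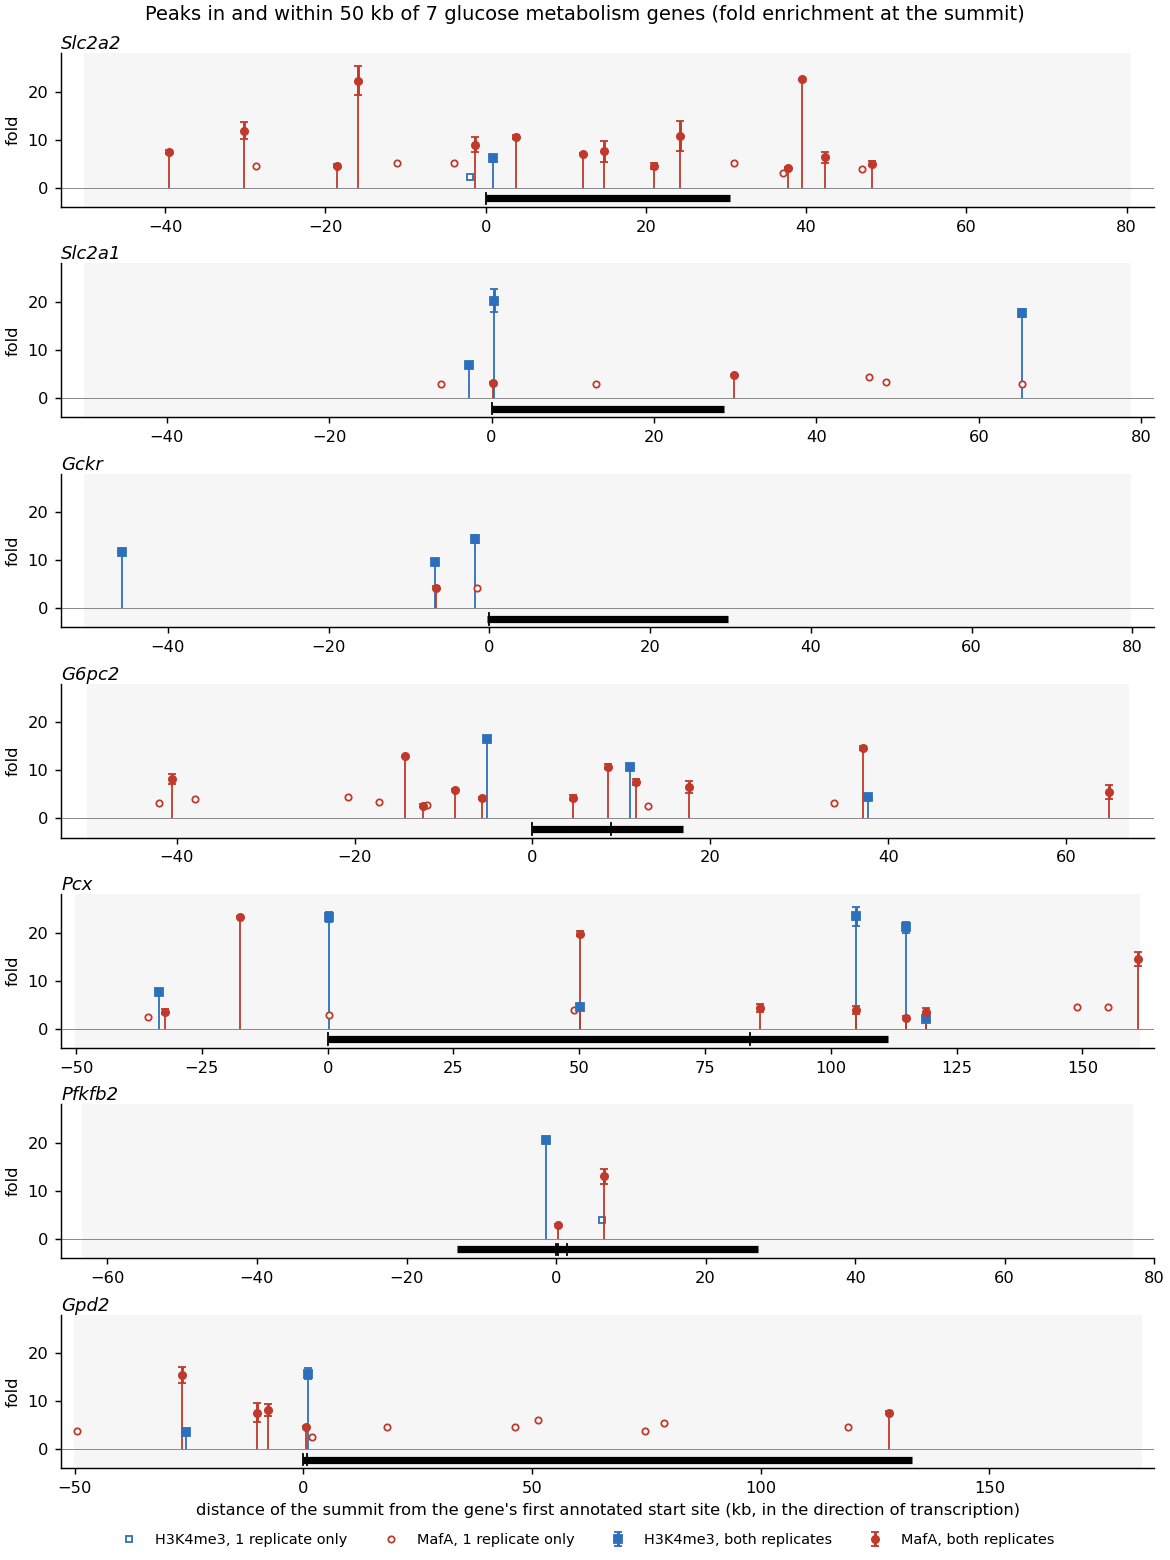
Peaks in the windows of the 7 genes. The x axis is the distance of the summit from the gene's first annotated start site in kb, in the direction of transcription, and the y axis is fold enrichment at the summit. Filled circles (MafA) and filled squares (H3K4me3) are regions found in both replicates at their mean, with bars reaching both replicates' values; open symbols are peaks of 1 replicate only; the black bar is the gene, ticks on it are start sites and grey shading is the window. Slc2a2 carries 14 filled MafA circles on both sides of its start, while Gckr carries 1.

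**Figure D2:**
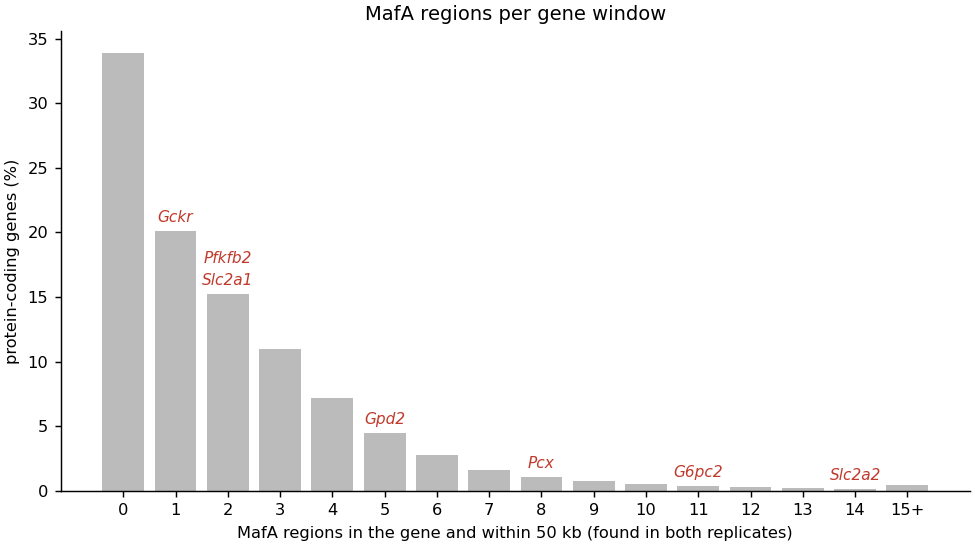
MafA regions per gene window over 21887 protein-coding genes. The x axis is the number of regions found in both replicates and the y axis the percent of genes with that number, with the 7 genes written above their own count. The largest class has 0 regions; Slc2a2 with 14 and G6pc2 with 11 stand in the right tail.

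Slc2a2 encodes GLUT2, the low-affinity glucose transporter of rodent beta cells. Its window held 10.7 MafA regions per 100 kb, and 3 protein-coding genes had more. Its strongest region by mean fold enrichment lay at chr3:28735946-28738271, with summits 39.5 kb beyond the start site, past the end of the gene and outside any protein-coding gene. It reached 22.7-fold in MafA replicate 1 and 22.5-fold in replicate 2 (mean 22.6 ± 0.0961, SD, n = 2), higher than 98.5% of all MafA regions. The summits held 179 fragments in replicate 1 (95% exact Poisson interval 154 to 207) over a background of 6.94, and 344 (309 to 382) over 14.0 in replicate 2; these intervals cover counting error only. A second region stood almost as high at chr3:28680716-28684080, at -15.9 kb from the start, with 19.3-fold and 25.3-fold enrichment in replicates 1 and 2. The 2 regions changed order between replicates, so neither can be called the stronger. Another, at -30.2 kb from the start and inside the neighbouring gene Tnik, reached 13.6-fold and 10.1-fold.

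Near the Slc2a2 start site, MafA enrichment was lower. The region there had its summits at -1353 and -1388 bp from the start, with 7.54-fold and 10.5-fold enrichment in replicates 1 and 2. The replicate 2 peak covered all 300 bases of the promoter printed above, whereas the replicate 1 peak ended 594 bp short of the start site. Inside the gene, regions at 3.8 kb and 24.2 kb from the start reached 10.1-fold and 11-fold, and 7.68-fold and 13.8-fold. The second of these had the largest replicate ratio of the 43 regions, 1.80. H3K4me3 at Slc2a2 was weak, at 5.44-fold in replicate 1 and 6.77-fold in replicate 2, a mean higher than 16.8% of all H3K4me3 regions. Its peaks began 63 and 38 bp after the start site. Only 1 of the 14 MafA regions of Slc2a2 overlapped an H3K4me3 region. The 8 regions not described here had mean values of 4.15-fold to 7.58-fold, and 6 further MafA peaks of 3.15-fold to 5.22-fold appeared in 1 replicate only.

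Slc2a1 encodes GLUT1, the transporter found in most cell types and the main one of human beta cells. It showed the reverse arrangement, with strong H3K4me3 and weak MafA. H3K4me3 over its start site reached 22.6-fold and 17.9-fold in replicates 1 and 2, with both summits 289 bp after it. MafA at the same place reached 3.17-fold and 3.27-fold, with summits 208 and 226 bp after the start. The MafA summits there held 69 and 139 fragments over backgrounds of 21.1 and 41.5, so fragments were plentiful but so was the modelled background. The strongest MafA region of Slc2a1 by fold enrichment, at chr4:119138155-119138786, lay 1.3 kb past the end of the gene. This region had 4.81-fold and 4.72-fold enrichment (4.77 ± 0.0678, SD, n = 2). It was higher than 31.9% of MafA regions and rested on 18 and 33 fragments. H3K4me3 at the end of the neighbour Zfp691, in the same window, reached 18.5-fold and 16.8-fold with no MafA region. A MafA peak of 2.97-fold, found only in replicate 2, overlapped that mark. It was 1 of 5 MafA peaks in this window that appeared in 1 replicate only, at 2.85-fold to 4.39-fold.

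Gckr encodes a regulatory protein that restrains glucose phosphorylation in hepatocytes. It was the only one of the 7 genes with no MafA region inside the gene and none within 1 kb of its start site. Its single MafA region, chr5:31290706-31291682, lay at -6.58 kb from the start, within Ift172 and 0.404 kb from an end of that gene. It reached 4.62-fold and 3.95-fold in replicates 1 and 2 (4.29 ± 0.472, SD, n = 2) and overlapped the H3K4me3 region there, at 10.0-fold and 9.03-fold. No H3K4me3 peak covered the Gckr start site. The nearest, at the end of the neighbour Fndc4, had 15.3-fold and 13.6-fold enrichment and ended 1307 and 1314 bp short of it. Farther away, H3K4me3 at Krtcap3 reached 12.1-fold and 11-fold with no MafA peak. A MafA peak of 4.14-fold, found only in replicate 2, overlapped that Fndc4 mark and ended 567 bp short of the Gckr start site. Both Gckr and Slc2a1 lost their MafA regions when only the 16020 strongest peaks of each list were kept.

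G6pc2 encodes the islet glucose-6-phosphatase catalytic subunit, which returns glucose 6-phosphate to glucose and so opposes glucose phosphorylation. Its window held 9.41 MafA regions per 100 kb, and 13 protein-coding genes had more. RefSeq lists 2 start sites for it, and only the second carried signal. At the first, chr2 position 69211073, no peak of either target lay within 4 kb in any library. At the second, position 69219949, MafA reached 11.3-fold in replicate 1 and 10.3-fold in replicate 2 (10.8 ± 0.725, SD, n = 2). The summits lay at -333 and -329 bp from it, held 95 and 168 fragments over backgrounds of 7.49 and 15.1, and made the highest mean MafA value at a start site among the 7 genes, though not the highest in replicate 2. H3K4me3 covered the same start site at 10.5-fold and 11.1-fold, with summits 2180 and 2163 bp into the transcribed part. This is the promoter that holds both TGCTGAC matches.

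Other MafA regions of G6pc2 lay in the gene, near its end or in neighbouring genes. The strongest, chr2:69245959-69249764, was inside Abcb11, 37.2 kb past the first start site and 9.95 kb from the nearer end of Abcb11, at 15.0-fold and 14.3-fold (14.6 ± 0.494, SD, n = 2). It overlapped a weak H3K4me3 region of 5.07-fold and 3.99-fold. A region at -14.3 kb from the first start site, inside Spc25, reached 12.8-fold and 12.9-fold, and an H3K4me3 region 10198 bp wide ran across Spc25 from there, at 17.1-fold and 16-fold. Of the 11 MafA regions in the window, 8 overlapped H3K4me3, the largest number among the 7 genes. Ranked by fragments, the first place passed to the region 11.7 kb past the first start site, with 119 and 240 fragments and 7.62-fold mean enrichment. The other 7 regions had mean values of 2.69-fold to 8.22-fold.

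Pfkfb2 encodes an isoform of the bifunctional enzyme that makes and degrades fructose 2,6-bisphosphate, an activator of phosphofructokinase. Its strongest MafA region, chr1:130708946-130711186, lay inside the gene, 4889 and 4878 bp past the nearest start site. It reached 11.5-fold in replicate 1 and 14.5-fold in replicate 2 (13.0 ± 2.14, SD, n = 2) from 83 and 193 fragments. The peaks were 978 and 2241 bp wide in replicates 1 and 2, and the region was lost when a reciprocal overlap of 50% was required, which left 2.91-fold as the highest mean value. At the promoter printed above, MafA reached only 3.0-fold and 2.83-fold, with summits 62 and 61 bp into the gene and 66 and 124 fragments over backgrounds of 21.3 and 43.0. H3K4me3 covered all 3 listed start sites in one region of 21.0-fold and 20.2-fold, which also reached the neighbour Yod1.

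Pcx encodes pyruvate carboxylase, the mitochondrial enzyme that turns pyruvate into oxaloacetate. Its strongest MafA region was the highest of all 7 genes by mean, 23.4-fold in replicate 1 and 23.2-fold in replicate 2 (23.3 ± 0.142, SD, n = 2). The region, chr19:4492646-4493874, lay at -17.4 kb from the first start site and 3.72 kb from the nearer end of 2010003K11Rik. A second strong region lay 50.1 kb inside the gene, at 19.2-fold and 20.4-fold, over a weak H3K4me3 region of 4.58-fold and 4.3-fold. Another, inside Gm960 and 49.4 kb past the end of Pcx, reached 15.9-fold and 13.1-fold. The start site itself stood apart from these. H3K4me3 there reached 24.2-fold and 22.1-fold, while MafA had no peak in replicate 1 and a 2.78-fold peak in replicate 2, with 170 fragments over a background of 60.3. The second listed start site of Pcx had no peak of either target within 1 kb. The other 5 MafA regions had mean values of 2.32-fold to 4.35-fold. The one at the end of the neighbour Lrfn4 had 3.03-fold and 4.66-fold under H3K4me3 of 25.4-fold and 21.4-fold. This gene end too combined a high mark with a low MafA fold value. The MafA summits there held 96 and 290 fragments in replicates 1 and 2, over backgrounds of 31.0 and 61.1.

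Gpd2 encodes the mitochondrial glycerol-3-phosphate dehydrogenase, which passes electrons from cytosolic NADH to the respiratory chain. Its strongest MafA region, chr2:57210220-57212233, lay at -26.5 kb from the first start site, 5.01 kb from the nearer end of Gm52512. It reached 13.7-fold and 17.1-fold (15.4 ± 2.39, SD, n = 2), with 176 and 479 fragments, and overlapped a weak H3K4me3 region of 3.98-fold and 3.32-fold. Regions at -10.2 kb and -7.78 kb from the start had 5.61-fold and 9.63-fold, and 9.34-fold and 6.88-fold, so their order changed between replicates. At the second start site MafA reached 4.56-fold and 4.79-fold, with summits at -190 and -204 bp from it, under H3K4me3 of 16.8-fold and 14.6-fold. The replicate 2 MafA peak covered all 300 bases of the printed promoter and the replicate 1 peak 203 of them. The remaining region lay inside the gene, 5.33 kb from its end, at 7.26-fold and 7.90-fold.

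**Figure D3:**
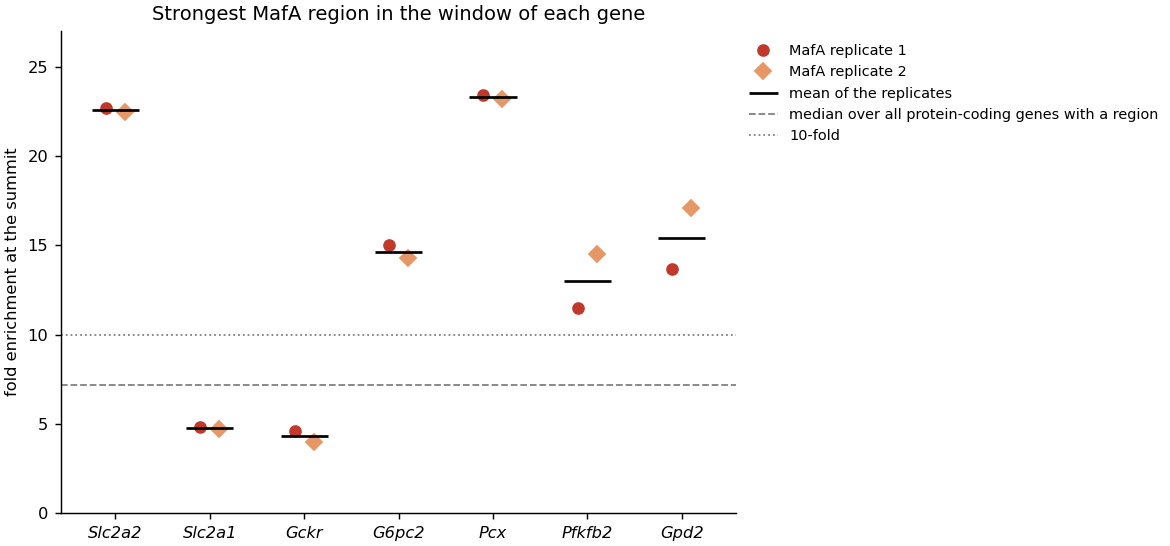
Fold enrichment at the summit of the strongest MafA region of each gene. Circles are MafA replicate 1, diamonds replicate 2 and bars their mean; the dashed line is the median over all protein-coding genes with a region, 7.16, and the dotted line 10-fold. Slc2a2 and Pcx lie above 22-fold in both replicates, and Slc2a1 and Gckr lie below the dashed line.

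By the mean fold enrichment of the strongest region, the order was Pcx, Slc2a2, Gpd2, G6pc2, Pfkfb2, Slc2a1 and Gckr. Pcx and Slc2a2 were neighbours in this order, and in replicate 2 the second Slc2a2 region, at 25.3-fold, exceeded both. The replicate values of Gpd2, G6pc2 and Pfkfb2 overlapped one another. Slc2a1 and Gckr differed by less than 1 unit of fold, and both lay below the other 5 genes in each replicate. The median over the 7 genes was 14.6-fold, against 7.16-fold over protein-coding genes with a region and 7.27-fold over those with H3K4me3 at an end. Among genes with a region, the strongest region of Pcx was higher than in 96.6% of genes, that of Slc2a2 than in 96.1%, Gpd2 88.7%, G6pc2 87.0%, Pfkfb2 82.9%, Slc2a1 19.7% and Gckr 14.0%.

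An end of 4 of the 7 genes had H3K4me3 within 1 kb, namely Slc2a2, Slc2a1, Pcx and Gpd2, against 55.8% of all protein-coding genes. For MafA the same held at 4 genes, Slc2a2, Slc2a1, G6pc2 and Gpd2, against 20.4%. Because start sites of G6pc2 and Pfkfb2 lie inside the annotated gene, the count was repeated at annotated start sites after the data were seen. H3K4me3 then lay within 1 kb of a start site of 6 of the 7 genes, all but Gckr, against 57.6% of the 17492 genes with a listed promoter. MafA lay within 1 kb of a start site of 5 genes, all but Gckr and Pcx, against 19.9%. The highest mean MafA enrichment at these 5 start sites was that of G6pc2, although in replicate 2 Slc2a2 was higher, at 10.5-fold against 10.3-fold. Ranked by mean fold enrichment, the strongest region in the window lay elsewhere for each of the 7 genes. Ranked by fragments or by −log10 q, the strongest region of Slc2a1 was instead the one at its start site, of 3.22-fold mean enrichment.

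H3K4me3 coincided with 18 of the 43 MafA regions, or 41.9%, against 23.5% of all MafA regions. Of the 18, 8 lay in the G6pc2 window, several of them on the single H3K4me3 region 10198 bp wide across Spc25. In the other direction, 13 of the 19 H3K4me3 regions in the windows overlapped MafA. The same share over all 15573 H3K4me3 regions was not computed, so this count has no background beside it. The overlapping MafA regions had a median of 5.35-fold, against 7.58-fold for the 25 without H3K4me3. Their median background was also higher, 12.6 against 3.64 fragments in replicate 1 and 27.4 against 5.94 in replicate 2. Over all MafA regions the medians ran the same way, 4.40-fold for those on H3K4me3 and 6.14-fold for the rest. The part of the background in the lower fold values at start sites was not tested. At least 10-fold enrichment in both replicates was reached by 5 of the 18 regions on H3K4me3 (27.8%) and 7 of the 25 others (28%). Over all MafA regions the shares were 6.76% and 13.1%.

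**Figure D4:**
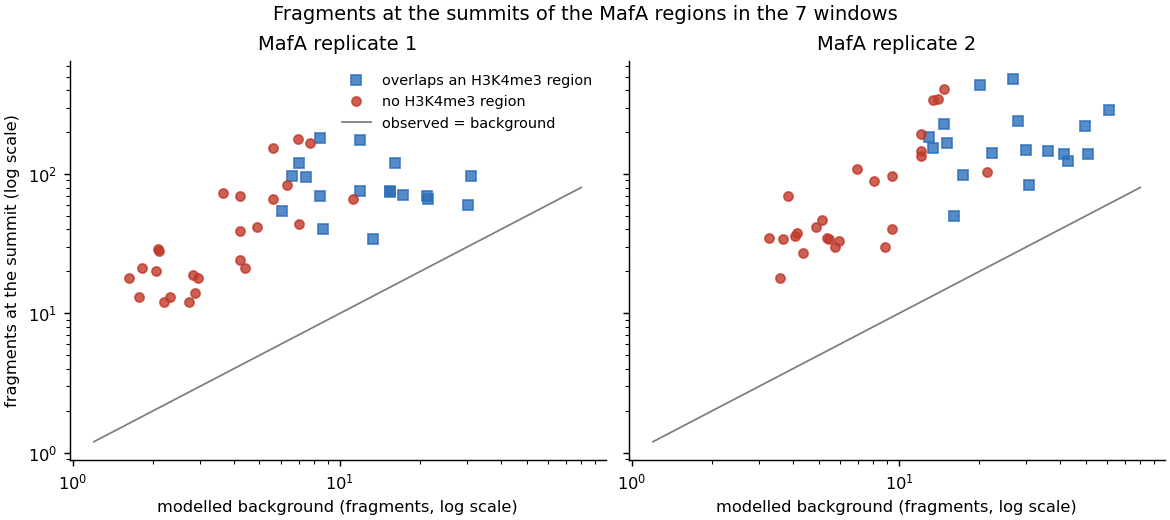
Fragments at the summits of the 43 MafA regions, in replicate 1 (left) and replicate 2 (right). The x axis is the modelled background and the y axis the fragments observed, both on log scales; squares overlap an H3K4me3 region, circles do not, and the line is where both are equal. Squares lie mostly to the right, with median backgrounds of 12.6 and 27.4 fragments against 3.64 and 5.94 for circles.

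MafA and H3K4me3 peaks differed in where they lay in the windows. The shares and widths below were not computed over all peaks of the libraries, so they cannot be called particular to these windows. Within 1 kb of an end of any gene were 10 of 58 peaks (17.2%) in MafA replicate 1 and 14 of 67 (20.9%) in replicate 2, against 12 of 20 (60.0%) and 13 of 22 (59.1%) in H3K4me3 replicates 1 and 2. The groups did not overlap, and the mean for MafA was 19.1% ± 2.58 (SD, n = 2) against 59.5% ± 0.643 (SD, n = 2) for H3K4me3. The difference of -40.5 percentage points far exceeded the spread between replicates, but the exact permutation test, two-sided, gave p = 0.333, the smallest that 2 libraries against 2 allow. Peaks of MafA were also narrower, with median widths of 665 and 764 bp against 1638 and 1478 bp for H3K4me3, and the same exact permutation p = 0.333. The difference in width, -843 bp, shrank to -52 bp (exact permutation p = 1.0) when only the 16020 strongest peaks of each list were kept.

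The summits of MafA replicates 1 and 2 lay a median of 47 bp apart in these windows, against 55 bp over all MafA regions. The distance was over 1 kb in 3 regions, 2191 and 1179 bp at G6pc2 and 1243 bp at Slc2a2. Between replicates the higher fold value exceeded the lower by a median ratio of 1.21 against 1.22. Replicate 2 was higher in 25 of the 43 regions and replicate 1 in 18. In MafA replicate 1, 8 of 58 window peaks had no partner in replicate 2, with 3.26-fold to 6.01-fold enrichment. In replicate 2, 24 of 67 had none, with 2.36-fold to 5.45-fold. Peaks with a partner made up 86.2% of the window peaks of replicate 1, against 81.2% of all its peaks. For replicate 2 these shares were 64.2% and 60.8%. No unmatched peak of these windows reached 10-fold.

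Other genes of glucose metabolism were taken from 5 lists, and 40 of 47 had a MafA region in their window, against 66.1% of all protein-coding genes and 84.1% of those with H3K4me3 at an end. A region of at least 10-fold in both replicates lay near 12 of the 47, against 15.9% of all. Among the other SLC2A transporters, 7 of 10 had a region. The highest were Slc2a13, a proton myo-inositol transporter, at 12.1-fold and 15.2-fold, and Slc2a9, a urate transporter, at 11.7-fold and 14.6-fold. Slc2a3 reached 5.10-fold and 6.20-fold, Slc2a10 3.24-fold and 4.23-fold, and Slc2a12 2.72-fold and 2.42-fold. Slc2a5 and Slc2a7 share a region of 6.17-fold and 10.0-fold, and Slc2a4, Slc2a6 and Slc2a8 had none although H3K4me3 stood at an end of each.

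Among the glucose-6-phosphatase genes, G6pc, the liver and kidney form, reached 8.40-fold and 9.35-fold, with no H3K4me3 at an end. The widely expressed G6pc3 reached 10.8-fold and 8.15-fold, with H3K4me3 at an end. Neither had a MafA region within 1 kb of an end.

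Among the PFKFB genes, Pfkfb4 reached 10.8-fold and 14.1-fold and Pfkfb3 5.88-fold and 5.11-fold, while Pfkfb1 had no MafA region. Pfkfb3 had 5 regions against 2 for Pfkfb2. Gpd1, the cytosolic partner of Gpd2 in the glycerol phosphate shuttle, reached 15.7-fold and 18.2-fold, and Gpd1l 14.4-fold and 11.4-fold. The highest values of all lists were those of Fbp1 and Fbp2, fructose bisphosphatases that share a region of 18.0-fold and 25.7-fold. Pck1, a gluconeogenic enzyme, reached 15.5-fold and 15.7-fold, and Mpc1, a subunit of the mitochondrial pyruvate carrier, 15.1-fold and 14.7-fold. In all lists 7 of 47 genes had no MafA region.

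The genes most like each of the 7 were sought by the Euclidean distance over the 4 libraries of the log2 highest fold enrichment in the window and the log2 number of peaks plus 1. Slc2a2 was closest to Trpm3 (distance 0.772), with MafA of 19.7-fold and 21.5-fold in replicates 1 and 2, and then to Opcml. Slc2a1 was closest to Kiz (0.177) and Slc38a2, and Gckr to Irgc1 (0.198) and Zfp626. G6pc2 was closest to Zfp608 (0.537) and Tiam1, and Pcx to Gclm (0.468) and Det1. Pfkfb2 was closest to Shcbp1l (0.496) and Aknad1, and Gpd2 to Adora2b (0.158) and Rab2a. Slc2a2 was thus the gene with the most distant nearest match.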

How the data were processed

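CUT&RUN was performed with 150 bp paired reads. Peaks were called for each library with MACS2, per the submitters' processing notes, which also name GRCm38 and mm10. The MACS2 version, aligner, duplicate handling and control library are not given in the sources used here. Fold enrichment, as deposited, is the linear ratio of the pileup to the background at a summit, with the same constant added to both. Printed fragments divided by their printed background therefore exceed the fold value, most of all where the background is low. Significance was deposited as −log10 p-values and −log10 q-values, the lowest −log10 q being 2.0. The deposited score was not used, and the deposited summit offset gave summit positions.

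Overlap between peaks meant 1 shared bp or more. The work was done in Python 3.11.15 with scipy 1.17.1, pandas 2.3.3 and numpy 2.4.6, and plots were drawn with matplotlib 3.10.9. Gene positions and start sites came from RefSeq tables of GRCm38.p6. Fragments at summits were solved from fold enrichment and −log10 p as whole numbers times a factor per library, within a relative tolerance of 0.0005, which gave 0.415, 0.997, 1 and 0.746 for H3K4me3 replicates 1 and 2 and MafA replicates 1 and 2. On 9000 simulated peaks with 3 factors the method recovered 100.0% of fragment numbers, and on simulated lists all planted overlaps were found. Library values were compared by an exact permutation test, in which p-values measure the spread between samples that may be technical replicates. The members and lists were chosen with earlier results of these data known, so counts stand beside those of all genes without a test.

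Named genes were the 7 members, their paralogs, the 5 listed genes with the highest MafA enrichment, genes nearer to a member's strongest region, and the 2 most like genes per member. Listed genes without a region were to be named where 5 or fewer. Alternatives were other windows, thresholds, overlaps and left-out libraries.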

Additional observations from a re-analysis of the deposited data

How the results depend on the processing

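The 7 genes with a MafA region became 6 when only gene bodies were counted and 5 with the 16020 strongest peaks per list, and the 5 genes with a region of at least 10-fold became 4 in gene bodies, within 10 kb and at 50% reciprocal overlap. The 43 MafA regions became 18 in gene bodies, 28 within 10 kb, 28 at 50% reciprocal overlap and 23 with the strongest peaks; leaving out 1 library gave 43 to 67, the 67 being without MafA replicate 1, when a match between replicates is no longer required. The 18 of them on H3K4me3 became 9 in gene bodies, 10 at 50% reciprocal overlap and 7 with the strongest peaks; leaving out 1 library gave 18 to 24. Gene bodies, 10 kb and 50% reciprocal overlap shrink the search or the overlap by construction. Keeping the 16020 strongest peaks shortens the MafA lists by construction too, and the cause was not tested further. In all, 48 of 56 counts under other settings stayed within 1.5 times the reported count. Some of these could not change, so the 48 do not measure stability. The count of genes with H3K4me3 at an end uses neither the window nor the MafA libraries. The counts of genes with MafA regions, and of the regions themselves, do not use the H3K4me3 libraries. Of 53 listed highest fold values of single genes under other settings with all libraries, 16 moved beyond the replicates' own spread. Values ranked by fragments or by −log10 q were listed only where the strongest region changed, and all of those moved. The 16 of 53 is therefore not a share of all values recomputed. A further 3 could not be computed because Gckr lost its region in the gene body and Gckr and Slc2a1 lost theirs among the strongest peaks. The share of all genes with a MafA region was 84.1% among those with H3K4me3 at an end, against 66.1%. The difference in peaks near gene ends ranged from -58.6 to -34.3 percentage points over the other settings. A paired fit, using a replicate block, was also run: its exact permutation test gave p = 0.5, the smallest it allows, for both comparisons, with unchanged differences of -40.5 percentage points and -843 bp; the labels share only a number. The median MafA summit over all peaks rested on 25 fragments in replicate 1 and 46 in replicate 2, which limits the precision of its fold value.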
